A study of Sus scrofa domesticus with 2 samples.

Results

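The genes described here are a list of 52 G2 and mitosis genes, whose products act between the end of DNA replication and the parting of the daughter cells. Of the 52, 50 were among the 22804 genes of both count tables. The list was matched by symbol for 48 genes, and CDK1 and BUB1 were found through a table that pairs Ensembl identifiers with symbols. AURKA and ANP32E were not found and are left out. In the cell cycle, cyclin B and CDK1 drive entry into mitosis, in which chromosomes condense and attach through kinetochores to spindle microtubules. The anaphase-promoting complex, activated by CDC20, then marks cyclin B and securin for destruction, and the chromosomes separate. Transcripts of many of these genes rise in G2 and fall after division. Endothelial cells of adult vessels rarely divide, while endothelial cells (ECs) kept in medium with serum do.

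Primary cells of adult domestic pigs, for which an age of 6 months is given, were taken from the lung and from the aorta by enzyme digestion and grown in medium with 10% fetal calf serum, as a culture model in which ECs can shift toward a mesenchymal state. Each tissue gave 1 library of untreated cells, read with a droplet kit that counts the 3′ ends of transcripts as unique molecules (UMIs). The lung cells came from 1 lobe. How many animals gave the aorta cells and the passage of the cells were not found in the sources used here. The lung table held 5946 barcodes, and 5683 of them had over 200 and under 5000 detected genes and under 30% mitochondrial UMIs. These 5683 cells held 56124100 UMIs, with medians of 9453 UMIs and 2894 genes per cell. The aorta table held 1185 barcodes. Its cells were far deeper, and the upper limit of 5000 genes would leave 246 of them, with a median of 4691 UMIs. The 955 aorta cells kept without the upper limit held 45215532 UMIs, with medians of 52080 UMIs and 6456 genes. The study uses this limit to take out doublets and states more aorta cells than it leaves. Of the 955 cells, 709 lie above it. Aorta values below are therefore given without the limit, and for the main ones the value within it is added. The libraries shared 5 barcode sequences. With 1 library per tissue, differences between tissues and between classes of cells have no replicate check and no test. Levels are scaled to the UMIs of a class as CPM and carry exact Poisson intervals, ratios carry exact conditional binomial intervals and shares Clopper-Pearson intervals. All intervals are at 95% and cover counting error only. The kit counts a transcript once whatever its length, so levels were not divided by length.

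Cells were clustered in each library without the marker genes and without the cell cycle lists, and classes were named from fixed markers. In the lung, clusters 0, 1, 2, 3, 4, 6 and 9 were endothelial-like and held 4895 cells (86.1%, interval 85.2 to 87.0). Clusters 7 and 10 were collagen-high, with COL1A1 and COL1A2 raised, and held 332 cells (5.84%, 5.25 to 6.48). Cluster 10 was led by WT1, and its leading genes held 2 markers of its own class and 2 of other classes. In the aorta, clusters 0, 1, 2 and 7 were endothelial-like, with 638 cells (66.8%, 63.7 to 69.8), and clusters 3 and 8 collagen-high, with 139 cells (14.6%, 12.4 to 17.0). PECAM1, the endothelial adhesion molecule, lay between 1498 and 1728 CPM in the lung endothelial-like clusters and at 149 and 118 CPM in the lung collagen-high ones. Lung cluster 7 and aorta cluster 3 also had 6 mural markers raised and were led by ACTG2, with ACTA2, PDGFRB and CSPG4 among their leading genes. The aorta held 70 further cells, named for raised ACTA2 and TAGLN and not collagen-high, whose median mitochondrial share was 0.109%. Shallow clusters without a marker of their class among their leading genes stayed unnamed, 332 cells in the lung and 108 in the aorta. Among them, lung cluster 5, with 291 cells, kept 12 of 12 detected endothelial markers and had PECAM1 at 1739 CPM. Aorta cluster 6, with 34 cells, also kept 12 of 12 and had PECAM1 at 999 CPM. These cells are not part of the endothelial-like values. Barcodes with transcripts of both classes, at 3 or more endothelial marker UMIs and 5 or more COL1A1 and COL1A2 UMIs out of 5200, made up 11.6% of the lung and 6.52% of the aorta collagen-high cells, against 0.105% and 0.158% of the endothelial-like cells. Leaving them out changed no pooled level of the members beyond counting error.

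Together the 50 members made up 3466 CPM (interval 3450 to 3483) of the lung endothelial-like cells and 3430 CPM (3411 to 3449) of the aorta ones. Collagen-high cells of the aorta stood higher, at 5455 CPM (5406 to 5504), and those of the lung lower, at 3112 CPM (3056 to 3169). The ACTA2- and TAGLN-raised aorta cells were at 3782 CPM (3572 to 4001), and immune-like lung cells at 3050 CPM (2953 to 3149). Within the upper gene limit the aorta endothelial-like level was 2169 CPM (2090 to 2250) and the collagen-high level 2860 CPM (2633 to 3101). A few abundant genes carried much of the sum. In lung endothelial-like cells TUBB4B, TOP2A, SMC4, CENPF and CKS2 made up 30.0% of it, and 11 members were above 100 CPM. PSRC1 was the lowest there, and in these cells every member had UMIs. In the ACTA2- and TAGLN-raised cells LBR was at 0.

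The members did not stand at one level in all cells of a class. Among lung endothelial-like clusters the pooled level ran from 712 CPM (694 to 730.4) in cluster 4, led by SLPI, CRYAB and CFD, to 7876 CPM (7823 to 7929) in cluster 2, led by TOP2A. Cluster 1, led by CDC20 and CCNB1, was at 4126 CPM (4083 to 4169). In the aorta the range was 671 CPM (656 to 686) in cluster 1 to 6212 CPM (6173 to 6251) in cluster 0. For values per cell, each cell was thinned to 5200 UMIs, which left 4783 lung and 633 aorta endothelial-like cells and 311 and 138 collagen-high cells. A lung endothelial-like cell then held UMIs of 8 members at the median, against 13.0 before thinning, and an aorta one of 7, against 29.0. Aorta collagen-high cells held 14.5 members, against 43.0 before thinning. The lowest 10% of them reached up to 9 member UMIs, and the lowest 10% of aorta endothelial-like cells up to 1. Of these collagen-high cells, 1 had no member UMI, against 30 of the endothelial-like cells (4.74%). In the lung the classes were closer, with 10.0 members in a collagen-high cell, and the highest 10% of collagen-high cells began at 31.0 member UMIs against 41.0 in the endothelial-like cells. At the median, a collagen-high cell held 21.0 member UMIs in the aorta and 13.0 in the lung, and an endothelial-like one 10.0 and 11. Within the upper gene limit the aorta medians were lower, at 10.5 member UMIs and 8.5 members in 12 collagen-high cells and 5 UMIs and 4 members in 83 endothelial-like cells.

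Lung and aorta endothelial-like cells were compared for the level of each member. The pooled ratio of lung over aorta was 1.01 (1.00 to 1.02), and none of the 50 members differed by 2-fold in either direction. Over all genes with 50 or more UMIs in the compared classes, 2.21% were 2-fold higher in the lung and 6.13% were 2-fold lower. The members' median ratio was 0.989, and that of all genes 0.948. The highest ratio belonged to LBR, the lamin B receptor of the inner nuclear membrane, at 51.9 CPM in the lung and 36.5 in the aorta (ratio 1.42, 1.33 to 1.52). CDC25C, the phosphatase that activates CDK1, had a ratio of 1.36 (1.22 to 1.52), and DLGAP5, a spindle assembly factor, one of 1.31 (1.25 to 1.36). CENPF and CDC20 were each at 1.26. On the lower side, CDK1 was at 51.3 CPM in the lung and 72.7 in the aorta (0.705, 0.667 to 0.745). CKAP2L and CKAP2, related proteins of the mitotic spindle, had ratios of 0.707 and 0.731, and KIF23 and ANLN, which act in cytokinesis, of 0.768 and 0.80. Against aorta cells within the upper gene limit the pooled ratio was 1.60 (1.54 to 1.66), with 7 members 2-fold higher in the lung and none 2-fold lower, where 8.30% and 7.96% of all genes were. The aorta value thus depends on the limit. Within it, 73 of the 159 endothelial-like aorta cells were a cluster with a median of 2346 UMIs, a mitochondrial share of 0.2% and PECAM1 at 498 CPM, against 1222 CPM in the other 86. A like cluster of 74 cells was left unnamed without the limit, so the class differs in make-up as well as in depth. The part of neither was tested.

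The pooled levels of collagen-high and endothelial-like cells differed in opposite directions in the libraries, while the median cell of the same depth held more member UMIs in the collagen-high class in both. In the lung the pooled collagen-high level was 0.898 (0.881 to 0.915) of the endothelial-like level. There, 0 members were 2-fold higher and 1, ASPM, was 2-fold lower, where 7.13% and 13.3% of all genes were. In the aorta the pooled ratio was 1.59 (1.57 to 1.61), and 49 of the 50 members lay above 1. Of these, 10 were 2-fold higher, where 7.95% of all genes were, and none was 2-fold lower, where 17.0% were. The members' median ratio was 0.839 in the lung and 1.59 in the aorta, and the median of all genes was 0.981 and 0.972. Counting intervals lay below 1 in the lung and above 1 in the aorta for 20 members, among them TOP2A, CDK1, CDC20 and CCNB1, and for none the other way. Of all genes, 1.71% and 1.31% had such intervals. Within the upper gene limit, where 22 collagen-high aorta cells were left, the pooled ratio was 1.32 (1.2 to 1.44). There 27 members had enough UMIs to count, of which 5 were 2-fold higher and TOP2A was 2-fold lower, where 6.65% and 16.3% of all genes were. Median depths of the compared classes were 10687 and 9589 UMIs in the lung and 62295 and 54941 in the aorta.

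ANLN, which encodes anillin, the scaffold of the contractile ring, was raised in collagen-high cells of both libraries. It stood at 127 CPM in the lung collagen-high and 74.7 in the endothelial-like cells (1.70, 1.55 to 1.87), and at 204 and 93.4 CPM in the aorta (2.19, 2.07 to 2.32). CKS2, a small subunit of cyclin-dependent kinases, was likewise higher in both, at 1.35 (1.25 to 1.45) in the lung and 2.05 (1.96 to 2.15) in the aorta. Its relative CKS1B, and TACC3 and CKAP2L of the spindle (1.25, 1.08 to 1.43, and 1.39, 1.08 to 1.76, in the lung), were the other members with both intervals above 1. These 5 of 50 members (10.0%) compare with 19.3% of all genes. TTK was at 1.19 (0.953 to 1.48) in the lung. ASPM, a spindle pole protein, had the lowest lung ratio, at 31.8 over 68.1 CPM (0.468, 0.387 to 0.561), and a ratio of 1.05 (0.954 to 1.16) in the aorta. BUB1B, KIF11, CDC20 and TMPO followed in the lung, at 0.552, 0.573, 0.597 and 0.621. In the aorta the highest ratios were those of GAS2L3, which links actin and microtubules in late mitosis, at 2.82 (2.28 to 3.49), CENPF at 2.34 (2.24 to 2.45) and G2E3, a ubiquitin ligase, at 2.26 (2.0 to 2.56). SGO2, a protector of cohesin at centromeres, was at 2.11 (1.93 to 2.30). PSRC1, at 4.94 over 6.95 CPM, was the only member below 1 in the aorta (0.710, 0.501 to 0.985). After it and ASPM the lowest there were CTCF (1.08, 0.977 to 1.19), KIF11 (1.08, 0.998 to 1.17) and TMPO (1.11, 0.982 to 1.25). Lung collagen-high cells set against aorta ones gave a pooled ratio of 0.570 (0.559 to 0.582), with 17 members 2-fold lower and none 2-fold higher, where 2.98% and 2.75% of all genes were. Within the upper gene limit the aorta collagen-high level was 2860 CPM (2633 to 3101), below the lung level of 3112 CPM (3056 to 3169). These intervals overlap, so the lower lung level was seen only without the limit.

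**Figure D1:**
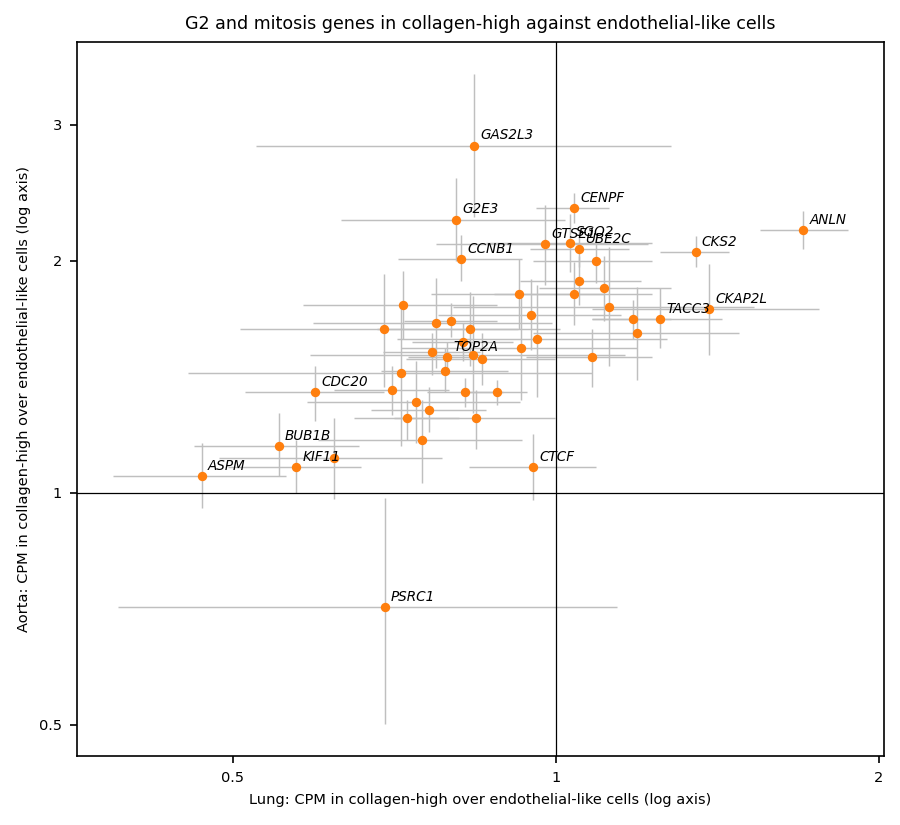
Ratio of CPM in collagen-high over endothelial-like cells for the 50 members, lung on the horizontal and aorta on the vertical axis, both log scaled. Bars are 95% counting intervals and thin lines mark a ratio of 1. 49 members lie above 1 in the aorta, where the pooled ratio is 1.59, while the pooled ratio in the lung is 0.898.

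The next comparison asks which members split cells high in TOP2A from cells high in CDC20. TOP2A, the topoisomerase that untangles and helps to condense chromosomes, builds up in G2, and CDC20 is known for its peak in mitosis. After thinning to 5200 UMIs, a cell with 3 or more TOP2A and fewer CDC20 UMIs than 3 was called TOP2A-only, the reverse CDC20-only, and the rest both or neither. Levels were then read from the UMIs of the same cells that thinning had set aside, so that the UMIs that sorted the cells were not the ones measured. TOP2A and CDC20 chose the cells, and their own values are descriptions. In the lung, 603 of the 4783 endothelial-like cells (12.6%, 11.7 to 13.6) were TOP2A-only, 113 (2.36%, 1.95 to 2.83) CDC20-only, 32 both and 4035 neither. In the aorta 77 of 633 (12.2%, 9.72 to 15.0) were TOP2A-only, 8 (1.26%, 0.547 to 2.47) CDC20-only, 1 both and 547 neither. Shares of these calls were 10.6% TOP2A-only and 0.643% CDC20-only among the lung collagen-high cells, or 33 and 2 cells. They were 13.0% and 2.17% among the aorta collagen-high cells, or 18 and 3. These were too few to split well. In the lung collagen-high cells 10 members could be counted, of which DLGAP5 was 2-fold higher in CDC20-only cells, where 3.98% of all genes were. The only one 2-fold lower was TOP2A, which sorted the cells, where 8.48% of all genes were. In the aorta ones 45 could be counted, and TMPO, CDCA8, TTK and CDC25C were 2-fold lower and none higher, where 5.21% and 0.996% of all genes were. Within the upper gene limit the aorta endothelial-like cells held 11 TOP2A-only cells and 1 CDC20-only cell.

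These calls are ranges of UMI counts, not cell types. Of the 113 CDC20-only lung cells, 90 stood at exactly 3 CDC20 UMIs, and 277 further cells lay just outside with 2. Of the 603 TOP2A-only cells, 188 stood at 3 and 253 lay just outside. The highest counts were 14 for TOP2A and 5 for CDC20. Of the CDC20-only cells, 99 had no TOP2A UMI after thinning, and 315 of the TOP2A-only cells had no CDC20 UMI. The lung clusters, built without these genes, divided the calls as well, and cluster 2 held 482 of the TOP2A-only and cluster 1 held 80 of the CDC20-only cells. In the aorta cluster 0 held 76 of the 77 TOP2A-only and 7 of the 8 CDC20-only cells. TOP2A-only cells were deeper, with a median of 12765 UMIs against 8013 in CDC20-only cells, and their mitochondrial share was 4.45% against 5.10%. The part of depth was not tested. Endothelial markers, 14 of 15 found, summed to 2606 CPM in TOP2A-only and 2900 CPM in CDC20-only cells, with PECAM1 the most abundant, and a cell held 14.0 and 15.0 of their UMIs at the median. COL1A1 and COL1A2 summed to 27.5 and 18.0 CPM and the 12 immune markers to 4.65 and 7.72 CPM, with a median of 0 UMIs per cell for each. The 8 fibroblast markers summed to 82.1 and 56.6 CPM and were almost all FBLN1. The 9 mural markers, almost all TAGLN, summed to 1015 and 782 CPM, with 5.00 and 3.00 UMIs in the median cell. No UMI of the epithelial, mesothelial or lymphatic markers found fell in CDC20-only cells, and their sums in TOP2A-only cells were 0.633, 0.211 and 1.06 CPM.

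Both kinds of cells carried more of the members than the remaining cells. TOP2A-only lung cells held 8127 CPM of the members (8046 to 8209), CDC20-only cells 5759 (5523 to 6003), cells with both 10730 (10341 to 11130) and cells with neither 2501 (2479 to 2523). Over cells with neither, 47 of the 50 members were 2-fold higher in TOP2A-only cells, where 2.34% of all genes were, with a pooled ratio of 3.25 (3.21 to 3.29). The 3 members short of 2-fold, named here after their values were seen, were TUBB4B (1.83, 1.74 to 1.93), a β-tubulin made throughout the cycle, RANGAP1 (1.92, 1.58 to 2.34) and CTCF (1.54, 1.37 to 1.72), the insulator protein. In CDC20-only cells 30 members were 2-fold higher than in cells with neither, where 3.88% of all genes were, and the pooled ratio was 2.30 (2.21 to 2.40). TOP2A itself stood at 100.4 CPM in CDC20-only cells and 115 CPM in cells with neither (0.870, 0.617 to 1.19). CDC20 was at 129 CPM in TOP2A-only cells and 62.2 CPM in cells with neither (2.07, 1.87 to 2.28). Both genes sorted the cells, so these ratios are descriptions and are not set against each other. In the aorta 47 members were 2-fold higher in TOP2A-only and 46 in CDC20-only cells than in cells with neither, where 3.42% and 6.07% of all genes were. None was 2-fold lower in either, where 2.96% and 12.5% were. The counts and pooled ratios over cells with neither hold TOP2A and CDC20, which sorted the cells. Cells with both, set against TOP2A-only cells in the lung, had 1 member 2-fold higher, GAS2L3, and 1 lower, PSRC1, where 1.85% and 6.42% of all genes were. Their pooled ratio was 1.32 (1.27 to 1.37).

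Set against each other in the lung, CDC20-only cells held 0.709 (0.679 to 0.740) of the members' pooled level in TOP2A-only cells. Of the 50 members, 12 were 2-fold higher in TOP2A-only cells, where 6.60% of all genes were, and 1, CENPA, was 2-fold higher in CDC20-only cells, where 1.25% were. The call of CENPA was lost at 2 UMIs, in another draw and on thinning to 2600 UMIs with a call at 2. The members' median ratio of CDC20-only over TOP2A-only was 0.666, against 0.997 over all genes. Counting intervals lay below 1 for 23 members and above 1 for 2, CDC20 and CENPA. At 1.5-fold, 26 members were higher in TOP2A-only and 2 in CDC20-only cells, where 14.7% and 7.19% of all genes were. These tallies hold TOP2A and CDC20, which sorted the cells. Without them, a count added after seeing the data, 11 of 48 members were 2-fold lower and 1 higher, and the pooled ratio was 0.753 (0.720 to 0.787). Intervals then lay below 1 for 22 members and above 1 for CENPA, where 4.27% and 4.82% of all genes had such intervals. Among these 48 the lung split thus ran mainly toward TOP2A. The clusters led by CDC20 and by TOP2A, also compared after seeing the data, had 20 members 2-fold lower and none higher, where 2.24% and 0.184% of all genes were. Members led these clusters and were the reason for choosing them, so this count describes the clusters and is no further evidence.

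In the aorta the CDC20-only class rests on 8 cells. There, 1 member, CDCA2, was 2-fold higher in TOP2A-only cells, where 6.65% of all genes were, none was 2-fold higher in CDC20-only cells, where 1.57% were, and the pooled ratio was 1.04 (1.01 to 1.08). Another thinning draw gave 9 members in place of 1, and calling at 2 UMIs, which compares 27 with 102 cells, gave 10. At 1.5-fold, 8 members were higher in TOP2A-only and 6 in CDC20-only cells, where 14.3% and 8.66% of all genes were. The ratio fell on the same side of 1 in lung and aorta for 32 of the 50 members, and for 30 of the 48 without TOP2A and CDC20 (62.5%), where 56.6% of all genes did. Of these 48, 6 (12.5%) had both intervals below 1 and 0 had both above 1, where 1.13% and 1.14% of all genes did. No member lay on opposite sides with both intervals off 1. At 2 UMIs, 40 members were on the same side, 22 had both intervals below 1 and CDC20 alone had both above 1. Without TOP2A and CDC20 these were 38 (79.2%), 21 (43.8%) and 0, where 62.1%, 3.41% and 2.41% of all genes were. At that setting the aorta values of TOP2A, CDK1, CENPF and UBE2C were 0.0850 (0.0646 to 0.110), 0.135 (0.0923 to 0.190), 0.235 (0.193 to 0.285) and 0.365 (0.303 to 0.435). Those of the lung were 0.111, 0.209, 0.262 and 0.255. With the call at 3 UMIs, CDK1 was 1.5-fold but not 2-fold lower in the 8 aorta cells, and CENPF was not 1.5-fold lower. At the setting of 3 UMIs the 8 aorta cells held TOP2A at 454 CPM, against 717 CPM in TOP2A-only cells (0.633, 0.544 to 0.733), so that this class was less clear of TOP2A in the aorta than in the lung. Without TOP2A and CDC20, 11 of 48 members had an interval above 1 and 6 below in these 8 cells, where 7.07% and 5.44% of all genes did, unlike in the lung at this setting. These intervals rest on 418869 set-aside UMIs of 8 cells and do not cover the spread between cells. At 2 UMIs, over all 50 members, 24 aorta intervals lay below 1 and 6 above, and 31 and 2 in the lung. These tallies hold TOP2A and CDC20, and no share of all genes was counted for them. The difference from the lung was thus not seen at 2 UMIs.

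**Figure D2:**
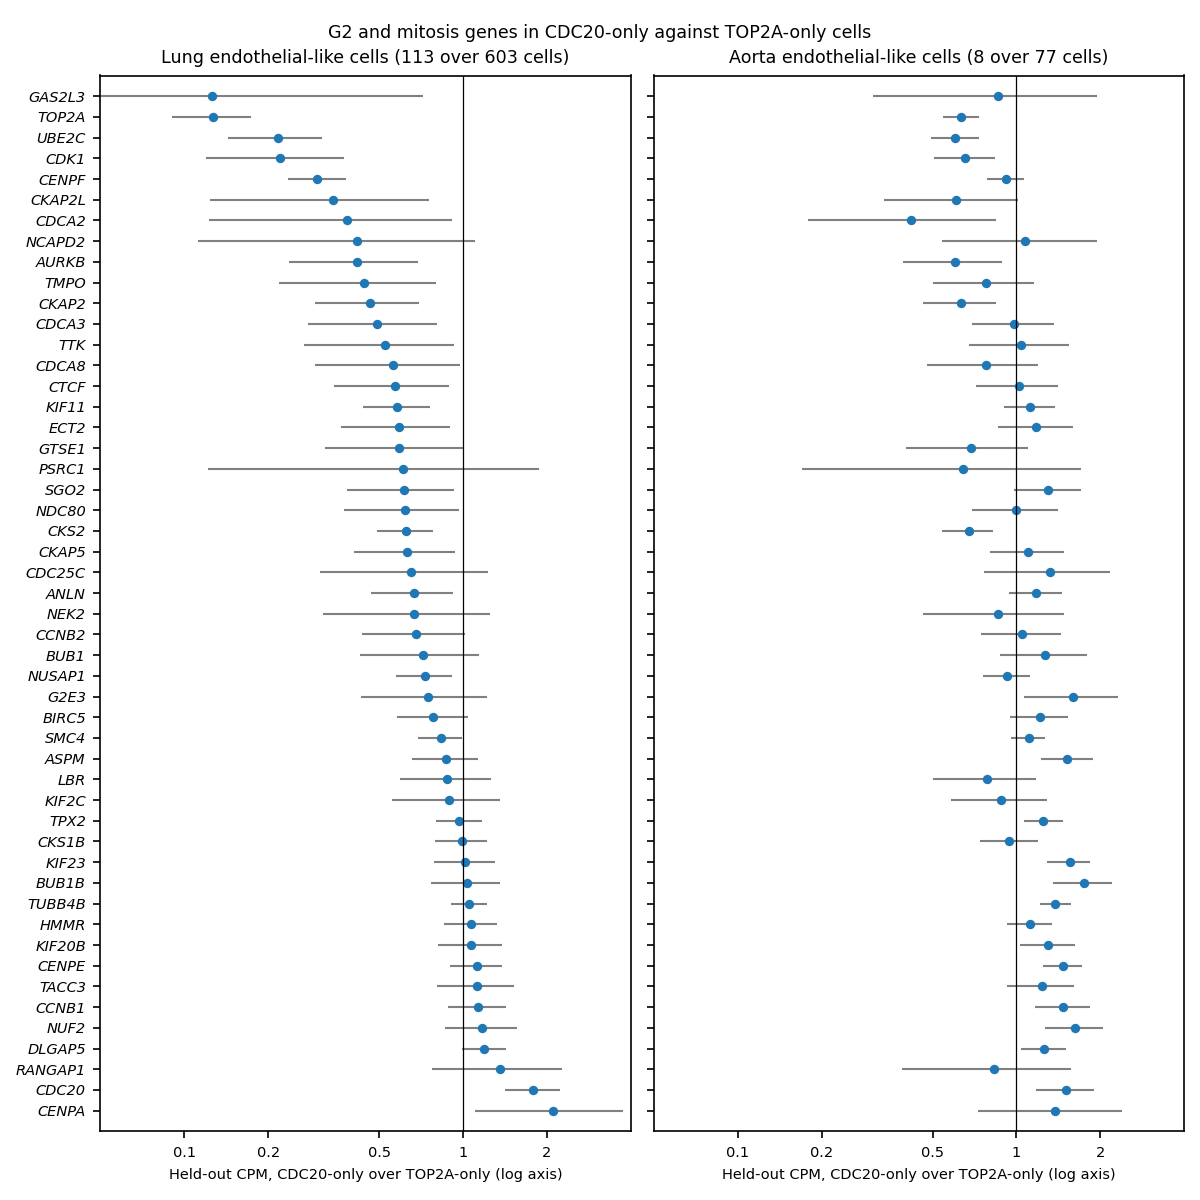
Ratio of held-out CPM in CDC20-only over TOP2A-only endothelial-like cells for each of the 50 members, in lung (113 over 603 cells) and aorta (8 over 77 cells), on log axes and in the order of the lung ratios. Lines are 95% counting intervals, that of GAS2L3 running off the left edge. TOP2A, UBE2C, CDK1 and CENPF lie at 0.127 to 0.30 in the lung, and CDC20 at 1.78.

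Among the cyclins, CDK1 and their partners, CDK1 itself was among the members that split the cells most. It was at 36.0 CPM in CDC20-only and 163 CPM in TOP2A-only lung cells (0.221, 0.120 to 0.374). Its level in CDC20-only cells was close to the 33.2 CPM of cells with neither. The B cyclins, which bind and activate CDK1, split the cells less. CCNB1 stood at 196 and 173 CPM in CDC20-only and TOP2A-only lung cells (1.13, 0.880 to 1.43), a ratio not set apart from 1 by its interval. CCNB2 was at 64.3 and 94.6 CPM (0.680, 0.435 to 1.02). At 2 UMIs its lung interval lay below 1, on the side of CDK1 (0.739, 0.577 to 0.935). In the aorta CCNB1 was at 1.47 (1.17 to 1.83) at 3 UMIs. CCNB2 was the less abundant cyclin in endothelial-like and collagen-high cells, at 0.459 (0.434 to 0.486) of CCNB1 in lung and 0.485 (0.452 to 0.520) in aorta endothelial-like cells. Collagen-high cells gave 0.468 (0.370 to 0.589) and 0.394 (0.353 to 0.438). The intervals of immune-like lung cells (0.941, 0.621 to 1.42), of unnamed aorta cells (0.667, 0.380 to 1.15) and of aorta endothelial-like cells within the upper gene limit (0.745, 0.467 to 1.18) held 1. So did that of aorta collagen-high cells within the limit (0.625, 0.254 to 1.46). CKS2 and CKS1B, paralogs that dock CDK1 to its substrates, had ratios in the lung whose intervals lay apart. At 3 UMIs CKS2 was lower in CDC20-only lung cells (0.623, 0.492 to 0.779), whereas CKS1B was level (0.991, 0.793 to 1.22). With the call at 2 UMIs, the interval of CKS1B also lay below 1 (0.788, 0.681 to 0.908), beside 0.521 (0.449 to 0.601) for CKS2. The paralogs thus stayed apart, and whether the interval of CKS1B held 1 depends on the setting. CKS2 over CKS1B was 1.18 (1.14 to 1.22) in lung and 1.48 (1.42 to 1.55) in aorta endothelial-like cells and rose to 1.35 and 1.82 in the collagen-high cells. Immune-like lung cells had the reverse order, with 0.660 (0.528 to 0.824), and within the upper gene limit the aorta endothelial-like value was 1.16 (0.872 to 1.55). Counting of paralogs can misplace reads that fit both genes.

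Of the ubiquitin genes, the 3 other than CDC20 all lay below 1 in the lung at 3 UMIs, with a median ratio of 0.491. In the aorta, over 8 CDC20-only cells, it was 0.981. UBE2C, the conjugating enzyme of the anaphase-promoting complex, stood at 74.6 CPM in CDC20-only and 346 CPM in TOP2A-only lung cells (0.216, 0.144 to 0.311), and in the aorta at 251 and 415 CPM (0.604, 0.492 to 0.736). CDC20, the activator of the same complex, was at 229 and 129 CPM in the lung (1.78, 1.41 to 2.23) and at 193 and 128 CPM in the aorta (1.51, 1.18 to 1.90). CDCA3, which helps to trigger mitotic entry, went with UBE2C in the lung (0.491, 0.278 to 0.808). At 2 UMIs the aorta ratios of UBE2C, CDCA3 and G2E3 were 0.365 (0.303 to 0.435), 0.586 (0.434 to 0.776) and 1.08 (0.774 to 1.47). The other 14 subunits and activators of the complex that were found, of 15 listed, had a pooled ratio of 0.957 (0.834 to 1.09) and a median ratio of 0.763 in the lung. Of these, 2 were 2-fold lower in CDC20-only lung cells and none higher, where 6.60% and 1.25% of all genes were, and in the aorta none was 2-fold off in either direction. Across whole classes CDC20 was at 83.0 CPM (lung) and 66.1 CPM (aorta) in endothelial-like cells, and at 49.6 and 89.0 CPM in collagen-high cells. UBE2C was at 99.2, 114, 104 and 236 CPM in the same order.

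Among the mitotic kinases and the passenger complex, AURKB, the kinase that corrects faulty attachments, was at 41.2 and 98.4 CPM in CDC20-only and TOP2A-only lung cells (0.418, 0.237 to 0.687). Its partners in the complex were nearer to 1, with BIRC5, or survivin, at 0.782 (0.579 to 1.04) and CDCA8, or borealin, at 0.562 (0.295 to 0.976). TTK, the checkpoint kinase MPS1, was at 0.524 (0.268 to 0.93). The checkpoint pair BUB1 and BUB1B did not part the cells in the lung, at 0.717 (0.426 to 1.14) and 1.03 (0.766 to 1.36), while BUB1B was higher in the 8 CDC20-only aorta cells (1.74, 1.35 to 2.21). BUB1B over BUB1 was 1.77 (1.67 to 1.87) in lung and 1.55 (1.44 to 1.67) in aorta endothelial-like cells, and 1.93 (0.976 to 3.98) in the latter within the upper gene limit. In collagen-high cells the paralogs were level, at 1.06 (0.821 to 1.36) and 0.985 (0.871 to 1.11). BUB1 was found through the name table, and AURKA, the paralog of AURKB, was not found.

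Centromere and kinetochore members stood on both sides. CENPF, a large kinetochore protein that gathers in G2, was at 188 CPM in CDC20-only and 626 CPM in TOP2A-only lung cells (0.30, 0.235 to 0.379). It was higher in CDC20-only lung cells than in cells with neither (1.96, 1.53 to 2.48). CENPE, the kinesin that brings chromosomes to the equator, stood at 252 and 225 CPM (1.12, 0.901 to 1.38). NUF2 and NDC80, partners in the complex that grips microtubules, had ratios of 1.17 (0.860 to 1.56) and 0.620 (0.375 to 0.971) in the lung, and 1.62 (1.27 to 2.05) and 1.00 (0.691 to 1.41) in the aorta. At 2 UMIs NUF2 was at 0.983 (0.810 to 1.19) in the lung and 1.40 (1.17 to 1.66) in the aorta. CENPA, the histone H3 variant that marks centromeres, had a ratio of 2.11 (1.1 to 3.74), at 36.0 and 17.1 CPM. It rests on 14 and 81 UMIs, below the 100 set for naming a member, and is named because its values stood out. At 2 UMIs its ratio was 1.73 (1.13 to 2.60). The median ratio of the 6 genes of this role at 3 UMIs was 0.870 in the lung and 1.34 in the aorta, the latter over 8 CDC20-only cells. At 2 UMIs the aorta ratios ran from 0.235 for CENPF to 1.48 for CENPA, with NDC80 at 0.795, SGO2 at 0.845 and CENPE at 1.08.

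The spindle genes, 17 in number, had a median ratio of 0.868 in the lung, with 3 at least 2-fold lower in CDC20-only lung cells, where 6.60% of all genes were, and 6 above 1. In the aorta their median ratio at 3 UMIs, over 8 CDC20-only cells, was 1.12. There 10 lay above 1, with 6 intervals above 1 and 1 below. At 2 UMIs, over 27 CDC20-only cells, only TUBB4B among them had an aorta interval above 1 (1.26, 1.15 to 1.38). The aorta intervals of CKAP2, NUSAP1, TACC3, CKAP2L, KIF11, GTSE1, KIF20B and KIF2C then lay below 1, so the aorta side of this role depends on the setting. CKAP2L (0.342, 0.124 to 0.756) and CKAP2 (0.464, 0.295 to 0.696) were on the side of TOP2A in the lung. KIF11, the motor that pushes the spindle poles apart, was at 147 and 252 CPM (0.581, 0.438 to 0.758). The lowest value was that of GAS2L3 (0.126, 0.00315 to 0.717), with 1 UMI in CDC20-only cells. Above 1 at the setting of 3 UMIs stood DLGAP5, at 350.0 and 293 CPM (1.19, 0.994 to 1.43), TACC3, which bundles microtubules at kinetochores (1.12, 0.809 to 1.52), and KIF20B (1.07, 0.810 to 1.38), a kinesin of cytokinesis, each with an interval that holds 1. At 2 UMIs these were 0.954 (0.842 to 1.08), 0.889 (0.719 to 1.09) and 0.718 (0.588 to 0.872), so that their side of 1 is not settled. TPX2, which seeds microtubules around chromosomes, had a ratio of 0.968 (0.797 to 1.17), and KIF23 and HMMR were at 1.02 and 1.07. At 2 UMIs TPX2 and HMMR lay on the side of TOP2A, at 0.849 (0.751 to 0.959) and 0.752 (0.646 to 0.872), and KIF23 was at 0.955 (0.812 to 1.12). TUBB4B had the highest level of all members in lung and aorta endothelial-like cells, at 300.4 and 312 CPM, and little split in the lung (1.05, 0.902 to 1.22).

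Of the genes of chromosome structure, the 4 other than TOP2A had a median ratio of 0.493 in the lung, with 3 intervals below 1. TOP2A, which sorted the cells, was at 100.4 and 789 CPM (0.127, 0.0903 to 0.174). CDCA2, which targets phosphatase PP1 to chromatin, had a ratio of 0.383 (0.123 to 0.913) and NCAPD2, a subunit of condensin, one of 0.417 (0.112 to 1.1). The latter rests on 4 UMIs in CDC20-only cells. SMC4, the ATPase of condensin and far more abundant at 332 and 399.5 CPM, was nearer to 1 (0.831, 0.690 to 0.994). CTCF had a ratio of 0.570 (0.344 to 0.891). In the aorta the median ratio of the 4 was 1.04 at 3 UMIs, over 8 CDC20-only cells. At 2 UMIs, over 27 such cells, the aorta intervals of all 4 lay below 1. SMC4 was then at 0.883 (0.796 to 0.978) and CDCA2 at 0.393 (0.229 to 0.633). NCAPD2 was at 0.539 (0.295 to 0.917) and CTCF at 0.598 (0.450 to 0.781). The cytokinesis genes ANLN and ECT2, the latter an activator of RhoA at the cleavage site, had lung ratios of 0.666 (0.468 to 0.924) and 0.588 (0.365 to 0.901). In the aorta both lay above 1, with a median ratio of 1.18 and intervals that held 1. At 2 UMIs ECT2 was at 0.532 (0.400 to 0.696) in the lung and 0.730 (0.563 to 0.935) in the aorta. The interval of ANLN then held 1 in the lung (0.847, 0.706 to 1.01) and in the aorta (1.11, 0.95 to 1.29). Of the nuclear envelope genes, TMPO, which anchors lamins, was at 0.442 (0.219 to 0.803), LBR at 0.878 (0.593 to 1.26) and RANGAP1, the activator of the Ran GTPase, at 1.36 (0.774 to 2.26). At 2 UMIs the intervals of LBR lay below 1 in the lung (0.706, 0.551 to 0.896) and the aorta (0.665, 0.490 to 0.885). RANGAP1 was at 0.828 (0.549 to 1.21) in the lung at 2 UMIs, so its side of 1 is not settled.

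Shares of cells with at least 1 UMI depend on depth and are given for TOP2A and CDC20. After thinning, TOP2A was seen in 28.5% of lung endothelial-like cells (27.2 to 29.8), against 35.1% before thinning, and in 27.2% of aorta ones (23.7 to 30.8), against 46.9%. CDC20 was seen in 30.9% (29.6 to 32.3), against 44.1%, and in 22.4% (19.2 to 25.9), against 57.4%. Shares before thinning are over all cells of the class, and those after it over the cells with 5200 or more UMIs, whose median depths were 9658 and 55053 UMIs before thinning. In collagen-high cells TOP2A was seen in 39.2% of lung cells (33.8 to 44.9), a share above the endothelial-like one although the CPM was lower, so no order is read from it. CDC20 was seen there in 19.9% (15.6 to 24.8). Aorta collagen-high cells had 39.1% (30.9 to 47.8) for TOP2A and 29.7% (22.2 to 38.1) for CDC20, against 71.2% and 89.9% before thinning. Every class held members, and none is known to lack dividing cells. Immune-like lung cells, which also carried PECAM1 at 1210 CPM, had TOP2A in 46.2% (36.3 to 56.2) and CDC20 in 19.2% (12.2 to 28.1) of 104 cells, at a median of 10417 UMIs. The share due to free RNA was therefore not measured.

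Co-expression was described by Pearson's r over the cells of a class, on the log of thinned UMIs plus 1, for members with a mean of 0.100 UMIs or more. The cells share 1 library and 1 depth, and no p is given. Over 4783 lung endothelial-like cells, the 780 pairs of 40 members had a median r of 0.207, and 53.6% of pairs were above 0.2. The median over 15276628 pairs of all 5528 genes was 0.000481, with 0.0133% above 0.2. Over 633 aorta endothelial-like cells the 780 member pairs had a median of 0.244, with 70.5% above 0.2, where 0.0817% of all pairs were. No member pair was below 0 in either. Collagen-high cells gave lower medians, 0.133 in the lung (311 cells, 38 members) and 0.116 in the aorta (138 cells, 45 members). There 21.3% and 22.9% of member pairs were above 0.2, where 0.0649% and 1.31% of all pairs were, and 33 of 703 and 143 of 990 member pairs were below 0. The highest pair was TOP2A and CENPF in lung endothelial-like (0.664), aorta endothelial-like (0.675) and lung collagen-high cells (0.586), and UBE2C and CENPF in aorta collagen-high cells (0.665). TOP2A and UBE2C reached 0.611 and 0.627 in the endothelial-like cells, and TOP2A and CDK1 0.481 and 0.621.

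TOP2A and CDC20 themselves were only weakly tied, with r of 0.168 in lung and 0.176 in aorta endothelial-like cells, 0.144 in lung and -0.0166 in aorta collagen-high cells. Of the other 38 members, 30 in the lung and 31 in the aorta had a higher r with TOP2A than with CDC20, where 47.8% and 47.5% of the genes that are not members had. CDC20 had fewer UMIs, with a mean of 0.453 against 0.859 per thinned lung cell and 0.308 against 0.793 in the aorta, and fewer UMIs lower r. The part of this was not tested. CDK1 was among the most uneven, at 0.481 with TOP2A and 0.0992 with CDC20 in the lung and 0.621 and 0.144 in the aorta. CCNB1 leaned the other way, at 0.268 and 0.330 in the lung and 0.270 and 0.289 in the aorta, and so did NUF2, at 0.196 and 0.247 and at 0.135 and 0.276. DLGAP5 had the highest r with CDC20 in the lung, 0.373, and SMC4 in the aorta, 0.418. The 3 weakest lung pairs held CTCF, with 0.00834 for KIF2C and CTCF the lowest. S phase genes, 28 in the lung, were less tied to the members, with a median r of 0.0589, against 0.141 for 36 other G2 and mitosis genes. In the aorta the medians were 0.125 for 29 S phase genes and 0.187 for 36 others.

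**Figure D3:**
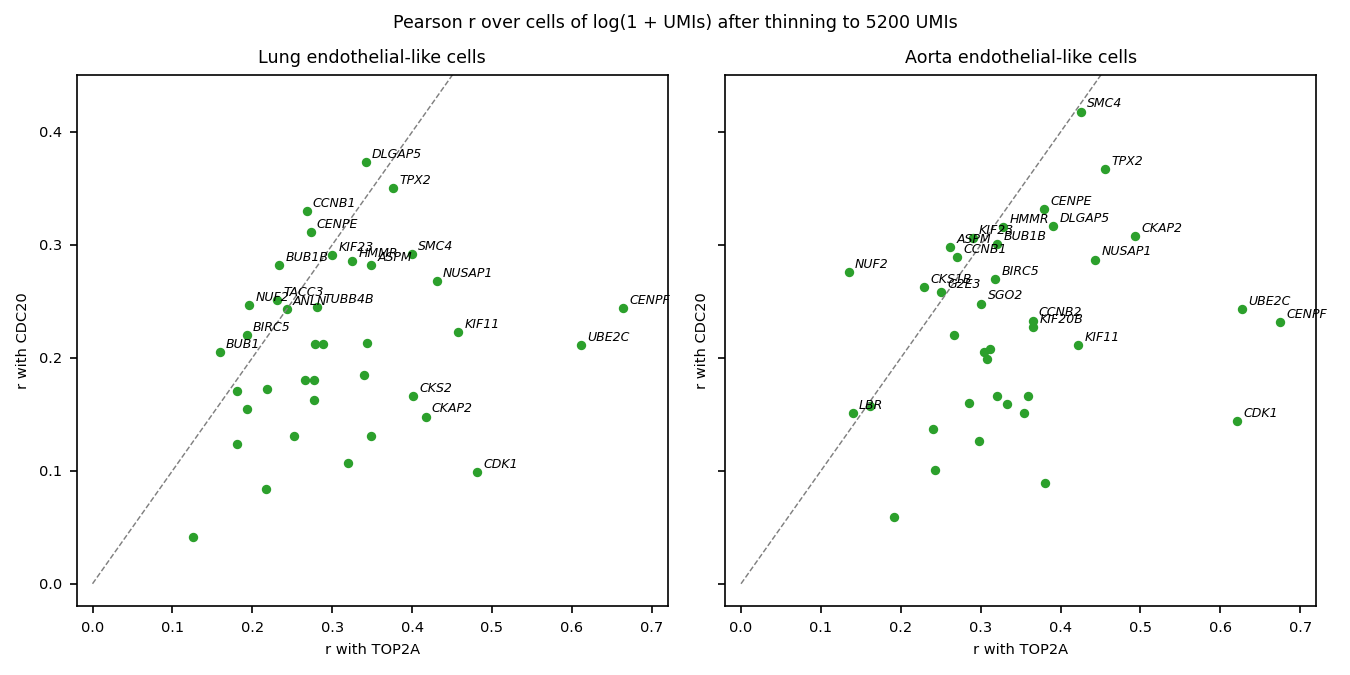
Pearson's r of each member with TOP2A (horizontal axis) and with CDC20 (vertical axis) over 4783 lung and 633 aorta endothelial-like cells thinned to 5200 UMIs. Each point is 1 of 38 members and the dashed line marks equal r. 30 points in the lung and 31 in the aorta lie on the side of TOP2A, with CENPF farthest out at 0.664 and 0.675.

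Genes outside the members were taken from fixed lists and by a rule on the size of the lung split. Of 72 other G2 and mitosis genes found of 83 listed, 63 had enough UMIs in the lung, and 15 of them were 2-fold lower and none 2-fold higher in CDC20-only cells, where 6.60% and 1.25% of all genes were. In the aorta 11 of 66 were lower and 1 higher, where 6.65% and 1.57% were. FAM83D, which brings the motor KID to the spindle, was at 5.15 and 51.9 CPM (0.0991, 0.0119 to 0.362). CDC25B, a starter phosphatase for CDK1, had a ratio of 0.164 (0.0443 to 0.423), KPNA2, an importin, one of 0.245 (0.180 to 0.326), with 0.892 (0.766 to 1.03) in the aorta, and NCAPH, of condensin, one of 0.250 (0.0912 to 0.552). SGO1 was at 0.339. KIF20A, the kinesin that carries the passenger complex to the midzone, stood at the other end, at 82.4 and 41.8 CPM (1.97, 1.31 to 2.87), with 1.30 (0.897 to 1.84) in the aorta. KIF22 and SPC24 followed at 1.35 (0.912 to 1.94) and 1.17 (0.985 to 1.39), with intervals that held 1. S phase genes also stood lower in CDC20-only cells, with a pooled ratio of 0.799 (0.742 to 0.859) in the lung and 0.694 (0.651 to 0.740) in the aorta. Of these, 6 of 36 and 17 of 39 counted genes were 2-fold lower, where 6.60% and 6.65% of all genes were. RAD51AP1 was at 0.358 in the lung and 0.887 (0.540 to 1.38) in the aorta, and CDC45 at 0.367 and 0.777 (0.475 to 1.21). A cell held 13.0 S phase UMIs in TOP2A-only and 8 in CDC20-only lung cells at the median. Linker histones, 5 found of 15 listed and 2 counted, had a pooled ratio of 0.412 (0.289 to 0.572) in the lung and 0.209 (0.141 to 0.297) in the aorta. HIST1H1D gave 0.299 and 0.137. Genes of arrest and of G1 had pooled ratios of 0.931 (0.832 to 1.04) and 1.02 (0.895 to 1.15) in the lung, and of 0.998 (0.906 to 1.1) and 0.828 (0.724 to 0.943) in the aorta. Among them CDKN3, a phosphatase acting on CDKs, was higher in CDC20-only lung cells (1.69, 1.16 to 2.39), with 1.13 (0.717 to 1.70) in the aorta. The G1 cyclin CCND2 was higher in the lung (1.58, 1.2 to 2.06) and at 0.914 (0.629 to 1.29) in the aorta. Of the subunits of the anaphase-promoting complex, ANAPC13, CDC27 and ANAPC16 had lung ratios of 1.23, 1.22 and 1.21, each with an interval that held 1. Of 3162 genes outside all lists at 50 CPM or more, the chemokine gene CCL5 (0.0890, 0.0107 to 0.324) and TERF1, of the telomeres (0.177, 0.0480 to 0.459, and 0.847 in the aorta), were the lowest, followed by the histone gene H2AC20 (0.219, 0.0993 to 0.418). ATAD5 and MTFR2 were at 0.305 and 0.349. Of 3 genes known only by identifier, ENSSSCG00000036080 was at 0.262 in the lung and 0.0647 in the aorta, and ENSSSCG00000007493 at 0.285 and 0.961. The remaining unnamed gene was at 0.319 and 0.686. CXCL10, another chemokine gene, was the highest at 84.9 and 14.6 CPM (5.83, 3.73 to 8.95), and was at 2.34 (0.0495 to 20.9) in the aorta. Its lung value rests on 33 UMIs of 2 CDC20-only cells and 69 UMIs of 13 TOP2A-only cells, and that of CCL5 on 2 UMIs against 274, of which 100 lay in 1 cell. Intervals that count UMIs do not cover such a spread between cells. YIPF6, LACTB, MPLKIP, SST, VAMP2, MSMO1 and APOBEC3B lay between 2.18 and 2.72. SST was at 14.9 (10.9 to 20.4) in the 8 aorta cells, and the other 6 lay between 0.924 and 1.46 there. How the SST UMIs were spread over these cells was not counted, so its value may rest on few of them.

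Since the members rose together in TOP2A-only cells, their promoters were read from the Sscrofa11.1 assembly of NCBI RefSeq, 250 bases before to 50 after each gene start. The motifs searched on both strands were TTTGAA or TTCGAA (the cell cycle genes homology region, CHR), CCAAT, and TTTGGCGC, TTTCGCGC or TTTCCCGC for E2F. CHR and CCAAT matches can share an end base. Of the 50 members, 49 had a window, all but TUBB4B. A CHR stood in 27 of the 49 (55.1%, 40.2 to 69.3), against 15.6% of 19519 promoters. CCAAT stood in 35 (71.4%, 56.7 to 83.4), against 35.4%, and both in 20 (40.8%, 27.0 to 55.8), against 6.15%. An E2F match was seen in 5 (10.2%, 3.40 to 22.2), against 2.81%. In 43 promoters of the S phase list, CHR stood in 14.0% (5.30 to 27.9), CCAAT in 60.5% (44.4 to 75.0) and E2F in 32.6% (19.1 to 48.5). The 77 promoters of the other G2 and mitosis list were near the members, with CHR in 41.6% (30.4 to 53.4), CCAAT in 63.6% (51.9 to 74.3), both in 33.8% (23.4 to 45.4) and E2F in 14.3% (7.35 to 24.1), so these motifs are not particular to the members. The median GC content was 58.3% in the members' windows and 58.7% in all. The median ratio of CDC20-only over TOP2A-only in the lung was 0.782 for the 27 members with a CHR and 0.599 for the 22 without. The 27 include TOP2A and CDC20, which sorted the cells, so these medians are descriptions. These matches describe the letters of the windows and show no binding. TOP2A lies at chr12:22001300-22028452, UBE2C at chr17:48018403-48021542 and CCNB1 at chr16:47338239-47348385, all on the plus strand. Their 250 upstream bases are shown because TOP2A and UBE2C lie at the low end of the split and CCNB1 among the members above 1. They run 5′ to 3′ along each gene's own strand, from chr12:22001050-22001299, chr17:48018153-48018402 and chr16:47337989-47338238. Capitals mark CHR and CCAAT matches on either strand. TOP2A has 2 CHR and 5 CCAAT matches in this stretch, UBE2C 1 and 5 and CCNB1 0 and 2.
TOP2A: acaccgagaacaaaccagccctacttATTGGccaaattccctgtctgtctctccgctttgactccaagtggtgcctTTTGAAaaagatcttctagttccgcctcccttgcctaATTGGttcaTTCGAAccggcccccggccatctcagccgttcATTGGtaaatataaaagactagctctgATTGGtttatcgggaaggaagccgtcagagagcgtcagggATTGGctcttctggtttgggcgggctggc
UBE2C: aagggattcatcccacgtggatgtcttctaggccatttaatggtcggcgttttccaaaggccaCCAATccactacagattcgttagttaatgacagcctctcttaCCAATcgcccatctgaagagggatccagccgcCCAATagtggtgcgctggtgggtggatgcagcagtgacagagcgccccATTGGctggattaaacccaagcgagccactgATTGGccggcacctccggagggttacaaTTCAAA
CCNB1: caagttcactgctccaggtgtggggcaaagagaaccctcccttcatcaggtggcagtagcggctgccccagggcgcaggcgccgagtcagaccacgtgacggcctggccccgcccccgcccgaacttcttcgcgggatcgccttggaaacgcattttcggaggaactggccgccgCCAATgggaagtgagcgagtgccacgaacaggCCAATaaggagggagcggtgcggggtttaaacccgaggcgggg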

How the data were processed

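The authors deposited counts, the UMIs per gene and barcode that Cell Ranger 3.0.2 gave on Sscrofa11.1, without normalization. A cell was kept with more than 200 detected genes and when 12 mitochondrial genes gave less than 30% of its UMIs, and in the lung with fewer than 5000 genes. Each library was clustered with Seurat 5.3.0 in R 4.3.3 on 2000 variable genes from which markers and cell cycle lists had been taken out, with 20 principal components and resolution 1. Sums, thinning, ratios and intervals were computed in Python 3.11.15 with numpy 2.4.6 and scipy 1.17.1. The ratio intervals and the reading of set-aside UMIs were tested on simulated counts. The simulated cells did not differ from each other, unlike those of the data, and the other steps were not tested this way. Genes with 50 or more UMIs over the compared classes were counted as 2-fold higher or lower. No p-values were computed, since each tissue has 1 library. Doublets were sought with Scrublet in scanpy 1.11.5, which marked 4 of the 5683 lung cells (0.0704%) and 9 of the 955 aorta cells (0.942%). Whether it found the doublets of either library was not tested. All cells were kept. Promoters came from the RefSeq annotation of the same build, which can place gene starts elsewhere than the Ensembl models used for counting.

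The members and the lists were chosen with earlier results of these data known. Named in detail were TOP2A, CDC20, the paralog pairs, the 8 members with the largest split each way among those with 100 or more UMIs, and the 5 members with the largest ratio each way in the other comparisons. Outside the members, the 8 genes of the lists and the 8 genes of no list with the largest split each way were named, at 50 CPM or more. Alternatives changed the limits on cells, the clustering, the UMI setting of the calls, the thinning, the fold and the measure of r. Comparing clusters led by CDC20 and TOP2A, leaving TOP2A and CDC20 out of the counts of the split, and leaving out barcodes with low mitochondrial shares for the shares of cells, were chosen after seeing the data.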

Additional observations from a re-analysis of the deposited data

Results flagged for a closer look

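The pooled level of the members in collagen-high cells over endothelial-like cells was 0.898 in the lung and 1.59 in the aorta, on opposite sides of 1 in the only library of each tissue. This holds for pooled CPM, since the median cell of the same depth held more member UMIs in the collagen-high class in both, 13.0 against 11 in the lung and 21.0 against 10.0 in the aorta. Within the upper gene limit the aorta values were 10.5 against 5, in 12 and 83 cells. Whether the tissues differ was not tested. Mixed barcodes were 11.6% and 6.52% of these collagen-high cells, and leaving them out gave 3142 over 3470 CPM in the lung and 5477 over 3432 CPM in the aorta. The median depth was 10687 and 62295 UMIs, whose part was not tested.

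Member transcripts were also seen in barcodes that the mitochondrial limit leaves out of every comparison. These were shallow, with medians of 106 genes in the lung and 63.0 in the aorta, below the lower gene limit, and whether they hold cells or free RNA was not tested. In 237 lung barcodes with 30% or more mitochondrial UMIs the 50 members stood at 1120 CPM (995 to 1256), above the 11.5 CPM that a count of 0 allows, and 47 members had a UMI. In 230 such aorta barcodes they stood at 1210 CPM (1138 to 1286), above 3.47 CPM, and 50 members had a UMI. Scaled to UMIs that were not mitochondrial, these levels were 3864 CPM (3432 to 4334) and 3822 CPM (3594 to 4060).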

How the results depend on the processing

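Of 132 values under other settings, 87 stayed within the counting interval, within 1.5 times for a count or within 0.01 for r, and 45 did not. The causes were not tested. The upper gene limit moved the aorta levels to 2169 CPM for its endothelial-like cells and 2860 CPM for its collagen-high cells, and took the share of aorta cells with both to 0%. A mitochondrial share under 10% gave 3492 CPM in lung and 3488 CPM in aorta endothelial-like cells. Leaving out barcodes under 1% gave 3450 CPM and resolution 1.5 gave 3454 CPM in the latter. Calling at 2 UMIs gave 15.7% TOP2A-only, 2.97% both and 7.55% CDC20-only cells in the lung and 16.1%, 2.21% and 4.27% in the aorta. At 5 UMIs, which leave 6 CDC20-only cells in the lung and 1 in the aorta, these were 6.27%, 0.0418% and 0.125%, and 5.53%, 0% and 0.158%. At 600 CPM without thinning they were 11.2%, 0.0409% and 0.592%, and 9.40%, 0% and 0%. Thinning to 2600 UMIs with a call at 2 gave 10.2% TOP2A-only cells in the lung and 2.68% CDC20-only cells in the aorta. The number of members 2-fold higher in CDC20-only lung cells, 1 as reported, was 0 at 2 UMIs, at 2600 UMIs with a call at 2 and in another draw. It was 2 at 5 UMIs and with 1.5-fold. On the side of TOP2A, 12 as reported, it was 4 at 5 UMIs and 26 with 1.5-fold. Clusters led by CDC20 and TOP2A in place of the calls, chosen after seeing the data, gave 0 and 20 members. Without TOP2A and CDC20 themselves, also chosen after seeing the data, the lung counts were 1 and 11. In the aorta, members higher in CDC20-only cells numbered 3 at 5 UMIs, a value of 1 cell, 1 in another draw, with 5 cells, and 6 with 1.5-fold. Those higher in TOP2A-only cells, 1 as reported, were 10 at 2 UMIs, 8 at 5 UMIs, 9 in another draw, 9 at 2600 UMIs with a call at 2 and 8 with 1.5-fold. The median r in aorta collagen-high cells was 0.0977 in another draw. The number of members on the same side of 1 in lung and aorta ran from 26 to 40 over the settings tried, the 26 resting on that 1 cell.

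CDC20 is read from a handful of UMIs per cell, and the CDC20-only class in the aorta holds 8 cells, so that its counts of members move with the draw. Collagen-high classes are too small for a split, with 2 and 3 CDC20-only cells. Class names were rebuilt here from markers. Each tissue has 1 library, so tissue, animal, culture and depth cannot be told apart.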
